A study of Mus musculus with 12 samples.

Results

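Capture of Mirlet7d-associated chromatin in MLE-12 cells gave 4286 deposited ChIRP-seq peaks, and the 405 of them that the authors' annotation placed in the promoter class are described here. They made up 9.45% of the peaks (exact 95% interval 8.59 to 10.4%) and were nearest to 402 genes. The class was read from the deposited annotation, in which HOMER's promoter rule covers 1 kb before to 100 bases after a transcription start site (TSS), and no score or other measured value entered the choice. The peaks of all other classes, 3881 in number, serve for comparison.

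MLE-12 is an epithelial cell line from lung tumours of mice that carry the simian virus large T antigen under the human surfactant protein C promoter. The series holds 12 libraries, each the only one of its group, and processed tables of 2 of them were used. For ChIRP-seq, chromatin of these cells was incubated with 150 pmol of biotinylated tiling oligonucleotides for mature Mirlet7d and recovered on streptavidin beads. The labels also put this library under Mirlet7d gain of function, while its treatment protocol names no transfection. For the RNA pull-down, cells were transfected with 25 nM of biotinylated Mirlet7d and harvested after 48 h, and the deposited values stand beside those of an input RNA library. Neither assay has a control capture among these libraries, and the ChIRP-seq input was not analysed here. Binding of chromatin to Mirlet7d and capture without it therefore cannot be told apart. The peak list gives no read numbers, so the depth behind a peak is unknown. With 1 library per assay there is no replicate error, no test was made, and every interval covers counting error only. The tables list selected peaks and transcripts, so the identity of the cells could not be checked from marker levels.

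Mirlet7d is a microRNA of the let-7 family, which is known mainly for pairing through its seed, bases 2 to 8, with messenger RNAs of growth and developmental genes in the cytoplasm. ChIRP-seq asks instead where in the genome an RNA, or what the RNA is bound to, lies close to DNA. Promoters are the stretches at which RNA polymerase II starts transcription. Many mammalian promoters lie in CpG islands, are active in most cell types and start transcription in both directions.

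The mature RNA that the probes were made against is shown first, with its seed in capitals. It is followed by the RefSeq promoter windows of Calr and Pradc1, the 2 windows with a seed match among the genes with the highest peak scores. Each window runs on build GRCm38.p6 from 250 bases before to 50 bases after a TSS, is written along the strand of the gene, and has the match in capitals. In both windows the gene's strand carries GAGGTAG, the seed's own letters, so that the strand able to pair with the seed is the opposite one.
let-7d-5p: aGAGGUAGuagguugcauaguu
Calr: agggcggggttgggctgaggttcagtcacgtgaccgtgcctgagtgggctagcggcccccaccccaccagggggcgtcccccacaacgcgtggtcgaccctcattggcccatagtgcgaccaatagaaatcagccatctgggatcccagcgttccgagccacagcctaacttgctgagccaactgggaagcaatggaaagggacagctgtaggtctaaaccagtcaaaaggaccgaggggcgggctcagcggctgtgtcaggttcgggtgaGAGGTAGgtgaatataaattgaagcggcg
Pradc1: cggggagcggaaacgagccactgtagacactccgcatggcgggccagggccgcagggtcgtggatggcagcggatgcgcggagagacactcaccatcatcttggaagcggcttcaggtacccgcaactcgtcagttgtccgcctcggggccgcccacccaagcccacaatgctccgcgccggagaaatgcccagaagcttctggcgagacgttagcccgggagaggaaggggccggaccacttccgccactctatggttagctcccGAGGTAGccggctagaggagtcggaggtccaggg
The microRNA lies at chr13:48536078-48536099 on the minus strand. The Calr window is chr8:84846882-84847181 and the Pradc1 window chr6:85451921-85452220, both on the minus strand of GRCm38.p6. Sequences are those of RefSeq.

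The next 3 windows belong to the genes with the highest-scoring peaks that span the TSS and that have a single RefSeq window. Capitals mark every CpG dinucleotide. Morc3, which encodes a nuclear ATPase that binds chromatin, lies at chr16:93831871-93832170 on the plus strand. Sftpb, the gene of surfactant protein B, lies at chr6:72304360-72304659 on the plus strand, and Cuedc2, which encodes a ubiquitin-binding CUE domain protein, at chr19:46338611-46338910 on the minus strand, all on GRCm38.p6.
Morc3: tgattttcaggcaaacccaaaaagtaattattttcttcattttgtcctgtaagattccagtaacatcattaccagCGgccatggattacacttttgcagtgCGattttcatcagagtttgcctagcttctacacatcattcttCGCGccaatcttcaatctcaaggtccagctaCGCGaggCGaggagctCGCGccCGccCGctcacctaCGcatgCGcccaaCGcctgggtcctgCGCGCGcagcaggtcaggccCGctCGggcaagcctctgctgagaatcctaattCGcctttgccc
Sftpb: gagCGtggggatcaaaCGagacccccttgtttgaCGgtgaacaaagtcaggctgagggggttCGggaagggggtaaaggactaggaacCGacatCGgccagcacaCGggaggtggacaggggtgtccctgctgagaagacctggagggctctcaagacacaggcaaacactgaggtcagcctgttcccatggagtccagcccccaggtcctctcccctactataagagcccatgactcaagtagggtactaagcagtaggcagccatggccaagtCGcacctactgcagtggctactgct
Cuedc2: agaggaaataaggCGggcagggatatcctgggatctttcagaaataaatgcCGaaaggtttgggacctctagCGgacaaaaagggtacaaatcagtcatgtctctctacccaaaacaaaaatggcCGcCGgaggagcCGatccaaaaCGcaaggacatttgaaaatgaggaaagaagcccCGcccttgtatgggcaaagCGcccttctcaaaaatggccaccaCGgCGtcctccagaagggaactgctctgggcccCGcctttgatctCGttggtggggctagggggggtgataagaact
The Morc3 window held 20 CpG, the Sftpb window 8 and the Cuedc2 window 13.

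Promoter peaks carried higher scores than the bulk of the list. The score is the authors' own deposited value, it was never below 30.01, and it serves here only to rank peaks within the list. The median score of promoter peaks was 36.1 (interval 35.2 to 37.3, middle 50% from 32.4 to 45.6), against 34.2 (34.0 to 34.4, middle 50% from 31.6 to 39.5) for the other peaks. A score of 40 or more was reached by 151 promoter peaks, 37.3% (32.6 to 42.2%), against 914 other peaks, 23.6% (22.2 to 24.9%), and 24.8% of all peaks. Promoter peaks had a higher share than intronic peaks, 22.3% (20.4 to 24.3%), and intergenic peaks, 23.7% (21.7 to 25.8%). The shares of the small classes at transcript ends, 41.2% of 85 peaks, and in 5′ untranslated regions, 47.1% of 17 peaks, had intervals that overlapped that of promoters. A score of 100 or more was reached by 7 promoter peaks, 1.73% (0.698 to 3.53%), against 38 other peaks, 0.979% (0.694 to 1.34%), with overlapping intervals. The highest promoter score was 161.8, and the highest score among the other peaks was 3100. Promoter peaks were 703 bases wide at the median (679 to 725), against 642 bases (635 to 647) for the other peaks.

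**Figure D1:**
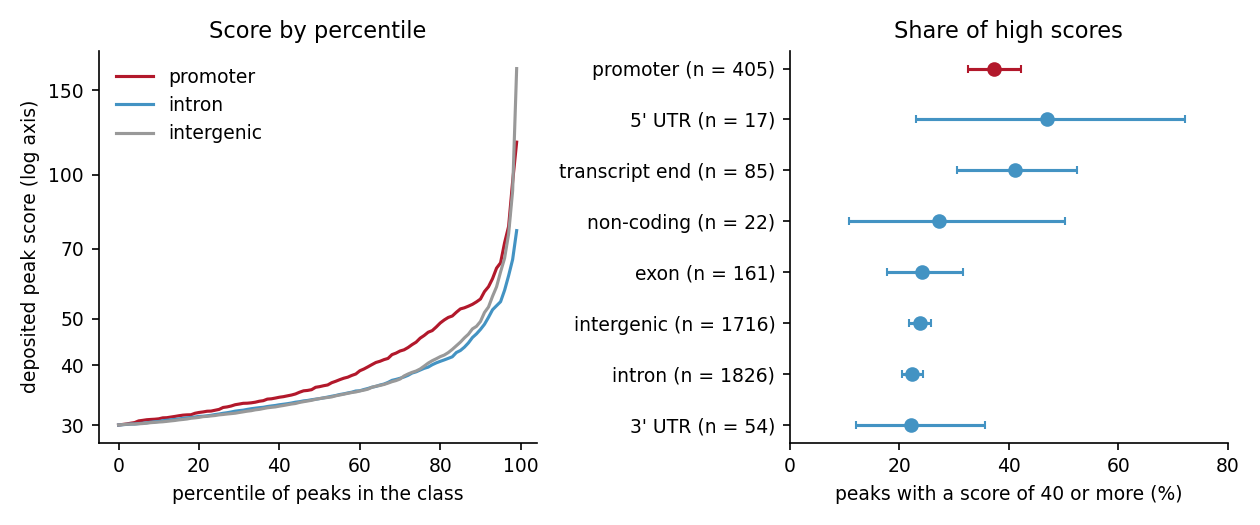
Left, deposited peak score on a log axis against the percentile of peaks in the promoter, intron and intergenic classes, up to percentile 99. Right, share of peaks with a score of 40 or more in each class, as points with exact 95% intervals; promoter peaks lie at 37.3%, intronic peaks at 22.3% and intergenic peaks at 23.7%.

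The 20 highest promoter scores belonged to 18 genes. Rn4.5s, the gene of the 4.5S RNA, a small non-coding RNA of rodents, held 3 of them, with 161.8, 137.8 and 113.0. These peaks were 4153, 4441 and 2772 bases wide and lay within 71775 bases of chromosome 6. The gene was also nearest to 12 peaks of other classes. It is a repeated gene, so reads of its copies may be shared among these places. Without it the median score of promoter peaks was 36.0.

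Nfkb2, which encodes the p100 and p52 subunits of the alternative NF-kappaB pathway, had the next score, 130.2, at chr19:46378237-46380224 on mm9, the build of all peak positions, with its centre 3 bases after the TSS. The Morc3 peak followed with 128.8 at chr16:93831771-93832668, 147 bases before the TSS. Sftpb had 117.1 at chr6:72253383-72255316, 255 bases before the TSS. Surfactant protein B is made by alveolar type 2 and club cells and is needed for the surface film of the lung. Cuedc2 had 105.8 and Lrrc45, which encodes a centrosomal linker protein, 98.4. The peak of Mafg, a small Maf transcription factor that pairs with stress regulators such as NRF2 and BACH1, had 96.9 and lay 475 bases before the TSS. Those of Psat1, an enzyme of serine synthesis, and Peo1, now named Twnk, the mitochondrial DNA helicase, had 94.6 and 91.4.

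The remaining 9 genes of this group had scores between 67.1 and 81.0. Sfxn3, a sideroflexin of the mitochondrial membrane, had 81.0 and Ssbp4, a single-stranded DNA binding protein, 78.1. Mxd1, a partner of MAX that opposes MYC, had 76.9, and Polr2g, a subunit of RNA polymerase II, 74.1. The pseudogene Pisd-ps2 had 73.6, 2610044O15Rik8 72.8 and Pradc1 68.3. Nbr1, a selective autophagy receptor, had 67.7, and Nolc1, a nucleolar phosphoprotein that takes part in ribosome biogenesis, 67.1. At the other end of the list, Ifltd1 had 30.01 and Dalrd3 and Osbpl9 30.02 each.

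Most promoter peaks belonged to protein-coding genes, 371 of 405 (91.6%, interval 88.5 to 94.1%), against 88.0% of all peaks. Non-coding RNA genes had 28 peaks, of which 8 were at microRNA genes with scores of 30.09 to 41.0. No gene of the let-7 family was among them. The highest-scoring of the 8, at Mir6236, had 41.0 and lay 83 bases after the TSS. Rnu12, the U12 RNA of the minor spliceosome, had a score of 44.3 with its centre 10 bases before the TSS, and the small nucleolar RNA gene Snora7a had 32.0 with its centre 51 bases before it; both were named after their values were seen. Kcnq1ot1, a long imprinted antisense RNA, had 33.4 at 107 bases before its TSS.

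Peak centres crowded towards the TSS. The median distance was -224 bases, negative being upstream (middle 50% from -471 to -24 bases), the farthest centres lay at -990 and +823, and 319 peaks (78.8%, interval 74.5 to 82.6%) were centred upstream of the TSS. The class reaches much farther upstream than downstream, so this share is largely set by the rule that made it. Within 100 bases of the TSS, where both sides are covered, 52 centres lay 1 to 100 bases before it and 51 lay 1 to 100 bases after it. Upstream, the number per 100 bases was 10 at 901 to 1000 bases, 30 at 501 to 600 bases and 55 at 101 to 200 bases. When all classes were taken, 592 peaks had a centre within 1000 bases of a TSS, of which the promoter class held 405, introns 134 and exons 25, and 53.9% (49.8 to 58.0%) of them lay upstream.

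**Figure D2:**
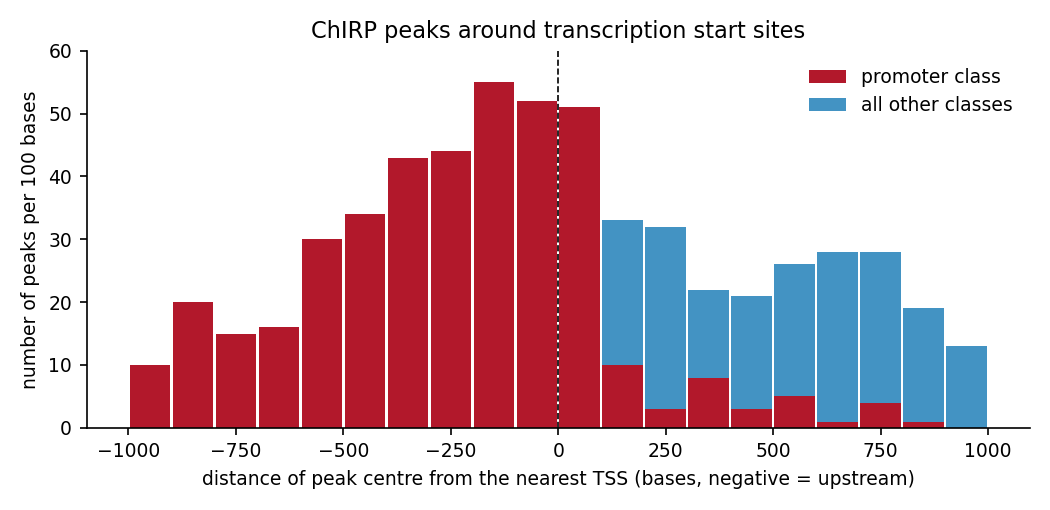
Number of peaks per 100 bases against the distance of the peak centre from the nearest TSS (negative is upstream), promoter class and all other classes stacked. The promoter class peaks at 55 in the bin from 101 to 200 bases upstream and, by its rule, gives way to other classes more than 100 bases downstream.

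The peak itself covered the TSS in 252 cases (62.2%, interval 57.3 to 67.0%). These peaks had a median score of 37.7 (35.7 to 40.1) and a median width of 736 bases (703 to 772). The 153 promoter peaks that stopped short of the TSS had a median score of 34.8 (34.1 to 36.1) and a median width of 654 bases (626 to 696). A wider peak covers a TSS more easily, and the part of width in the difference of scores was not tested.

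The class has sharp edges, and single peaks with high scores lay on both sides of them. The scores of all peaks near the edges were not compared. The 3 members nearest to its upstream edge were Fam96b at -990 bases with a score of 52.8, Rara at -986 with 34.0 and Mafa at -984 with 34.3. Just outside, as intergenic peaks, lay Junb at -1013 with 62.7, Fam32a at -1017 with 44.7 and Urb1 at -1021 with 37.6. On the downstream side the nearest peaks outside were Tbc1d7 at +104 with 36.1, Use1 at +113 with 77.1 and 1110001J03Rik at +119 with 37.0. Inside the class, 35 peaks were centred more than 100 bases downstream of the TSS they were assigned to, up to Brd9 at +823 with 32.5, Lrrc45 at +784 with 98.4 and D030028A08Rik at +737 with 37.9.

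Those far members are in the class through another TSS, since its rule ends 100 bases after a TSS. The accession that gave a peak its class and the nearest TSS are separate entries of the annotation, and at 49 of the 400 peaks where both could be read (12.3%, interval 9.20 to 15.9%) they belonged to different genes. Of the 35 peaks more than 100 bases downstream, 31 were of this kind, which the rule largely sets. The Lrrc45 peak took its class from Cenpx, a centromere and DNA repair protein, and the Peo1 peak, at +513 with a score of 91.4, from Mrpl43, a protein of the mitochondrial ribosome. The gene paired with a promoter peak was therefore uncertain at these 49 peaks. With them left out, 86.2% of the promoter peaks lay upstream. This rise also follows from the rule, as 37 of the 49 were centred downstream.

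Divergent gene pairs had a larger share among the members than in the comparison sets, but the class rule favours such pairs. A protein-coding neighbour that starts within 1000 bases on the other strand, away from the gene, was found for 44 of 301 protein-coding genes with a promoter peak and a RefSeq window (14.6%, interval 10.8 to 19.1%). The share was 4.67% (87 of 1862, interval 3.76 to 5.73%) among genes nearest to peaks of other classes only, and 8.65% (8.23 to 9.08%) among 16852 protein-coding genes. A peak too far downstream of its nearest TSS is in the class only if the promoter stretch of another TSS covers it. A divergent neighbour can supply that TSS, as at Lrrc45 and Peo1. Without such a TSS the peak falls to another class, whose genes serve for comparison. The part of this rule in the differences was not tested. Besides the pairs Lrrc45 with Cenpx and Peo1 with Mrpl43, Pradc1 stands beside Cct7, a subunit of the cytosolic chaperonin. Among the genes nearest to an edge, Brd9, a bromodomain protein of the BAF complex, stands beside Trip13, an ATPase of the mitotic checkpoint.

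Some members lay close to each other. Another promoter peak was found within 100 kb for 111 of the 405 (27.4%, interval 23.1 to 32.0%), against 691 of 3881 other peaks with a promoter peak at that distance (17.8%, interval 16.6 to 19.05%). The members concerned formed 45 runs, of which 31 had 2 peaks and 14 had 3 or more. Neighbouring peaks share a region, and the intervals count each as independent. The largest run held 6 genes, Calr, Klf1, Hook2, Asna1, Dhps and BC056474, at chr8:87370973-87605523. Calr encodes the chaperone calreticulin and Klf1 a transcription factor of red blood cells. Slc25a10, Fam195b, Mafg, Lrrc45 and Dus1l formed a run of 5 on chromosome 11. On chromosome 19, Nfkb2, Psd and Cuedc2 lay within 36433 bases, and Pprc1, Nolc1 and Gbf1 within 97643 bases. Rara, a retinoic acid receptor, was the only gene besides Rn4.5s with more than 1 promoter peak, with scores of 34.0 and 30.3 at 986 and 896 bases before 2 start sites, in a run with Top2a. In all, 135 of the 402 genes (33.6%, interval 29.0 to 38.4%) were also nearest to a peak of another class, against 10.8% (10.4 to 11.2%) of the 25819 curated genes with no promoter peak. This comparison was not limited to genes of the same chromosomes. The 5 chromosomes rich in peaks, named below, held 67.2% of promoter peaks, 61.7% of other peaks and 23.8% of curated genes. The part of chromosome in the difference between 33.6% and 10.8% was not tested. After Rn4.5s, Runx1, a transcription factor of blood and epithelia, had the most peaks of other classes among the 402 genes, 8. Lsm4, an RNA-binding subunit of the spliceosome, had 6.

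Promoter peaks were concentrated on chromosomes 6, 8, 11, 16 and 19, as the other peaks were. These 5 were picked as the chromosomes rich in peaks of this same list. A share of peaks above that of genes therefore follows from the choice. These 5 chromosomes held 272 promoter peaks (67.2%, interval 62.4 to 71.7%), against 2394 other peaks (61.7%, 60.1 to 63.2%), and 23.8% of the 26220 genes with a curated RefSeq transcript. Chromosome 11 had 79 promoter peaks, 58 of them beyond 90 Mb, chromosome 8 had 64, chromosome 6 had 56, chromosome 19 had 44 and chromosome 16 had 29. Per 1000 curated genes this came to 35.4 on chromosome 16 and 52.1 on chromosome 19, with the other 3 in between, while the remaining autosomes ranged from 3.07 on chromosome 14 to 13.7 on chromosome 18. Chromosome X had 1 promoter peak and chromosome Y none. Scores differed too, with a median of 37.9 (36.4 to 40.3) for promoter peaks on the 5 chromosomes, against 34.2 (33.5 to 35.4) for the 133 promoter peaks elsewhere. The other peaks went the same way, with medians of 34.7 on the 5 chromosomes and 33.5 elsewhere. Promoter peaks thus scored only slightly above other peaks off the 5 chromosomes. The share of peaks that fell in the promoter class was 10.2% (9.08 to 11.4%) on the 5 chromosomes and 8.21% (6.92 to 9.65%) on the others.

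**Figure D3:**
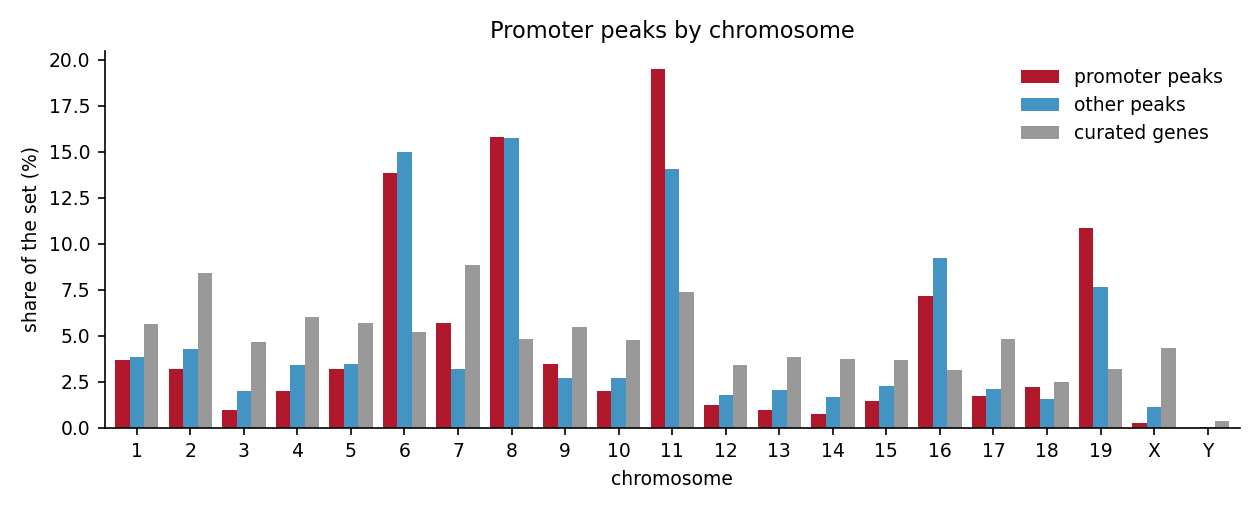
Share of promoter peaks, of other peaks and of curated RefSeq genes on each chromosome, in percent of each set. Chromosome 11 holds 19.5% of the promoter peaks, 14.1% of the other peaks and 7.39% of the genes; chromosome 19 holds 10.9%, 7.63% and 3.22%.

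In all, 20 sets of genes known for a pathway or cell type were compared with the members, and the members of the sets were few. Of 664 listed genes 23 had a promoter peak (3.46%, interval 2.21 to 5.15%), while 1.53% of the curated genes were nearest to one. These shares are not on like terms. The sets hold mostly protein-coding genes and were chosen with earlier results of these data known. Of the 26220 curated genes, 21035 are protein-coding, and they were not limited to genes that these cells express. The set of cell cycle and DNA replication genes had 4 of 38. Mcm2 and Mcm5, subunits of the replicative helicase, had scores of 52.5 and 31.1. Cdt1, which loads that helicase, had 49.6, and Top2a, the topoisomerase of mitotic chromosomes, 34.3. Lung epithelial genes had 2 of 37, the Sftpb peak described above and one at Nkx2-1, the master transcription factor of lung epithelium, with 35.4 at 869 bases before the TSS.

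NF-kappaB and inflammation had 2 of 34, Nfkb2 and Map3k14, the kinase NIK that starts the processing of p100, with a score of 35.9. Receptor kinase, RAS and PI3K genes had 2 of 37, the receptor Erbb2 with 45.6 and the adaptor Grb2 with 37.3. In splicing and RNA processing, 2 of 43 had a peak, Sf3b2 with 54.1 and Sf1 with 32.8, both of which act at the branch site. The immediate early and stress response set had Mafg and Gadd45b (31.1) among 44 genes. Chromatin modifiers had the maintenance DNA methyltransferase Dnmt1 with 35.7 and the histone deacetylase Hdac5 with 34.0 among 52. The Mediator subunits Med1 with 33.1 and Med26 with 31.5 were the members of 49 RNA polymerase II genes.

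The sets with a single member were ribosome biogenesis (Nolc1), mitochondrial respiration and translation (Mrpl45, 48.0), microRNA processing and effectors (the Argonaute gene Ago4, 31.8), WNT signalling (the receptor Fzd8, 33.3) and imprinted and long non-coding genes (Kcnq1ot1). In 7 sets no gene had a promoter peak. They were let-7 targets with 40 genes, let-7 genes with 12, Polycomb and nuclear exosome with 35, TGF-beta and BMP signalling with 37, mesenchymal and matrix with 30, and endothelial and immune markers with 18 each. Genes of these sets were nearest to peaks of other classes, 7 of the let-7 targets and 1 of the let-7 genes among them. Read by the class accession in place of the nearest gene, Pik3r2, a regulatory subunit of PI3K, was the one addition, at the peak of 2010320M18Rik with a score of 34.3. Sets of this size hold few members by their number alone, and no order among them was read from these counts.

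The promoters of the members were rich in CpG. The CpG ratio is the number of CpG dinucleotides over that expected from the C and G content, and it could be read for 390 RefSeq windows of 301 of the 368 protein-coding genes (81.8%). Its median was 0.755 (interval 0.727 to 0.780), against 0.690 (0.668 to 0.707) for the 2434 windows of genes nearest to other peaks only and 0.588 (0.578 to 0.596) for 20487 windows of all protein-coding genes. Windows with a ratio of at least 0.6 and a GC content of at least 50% made up 70.8% (66.0 to 75.2%) among the members, 55.5% (53.5 to 57.5%) among genes nearest to other peaks only and 46.5% (45.8 to 47.2%) among all protein-coding genes. The GC content itself did not separate members from genes nearest to other peaks, with a median of 60.0% in both. Genes with a promoter-associated ncRNA in the pull-down but no promoter peak had a median ratio of 0.767 (0.748 to 0.784), close to that of the members. Some genes have several windows, a few of them nearly the same, and each window was counted as independent. The intervals may therefore be too narrow, here and for the seed matches and motifs below. Windows of alternative starts that no promoter peak touches were counted among those of the members.

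**Figure D4:**
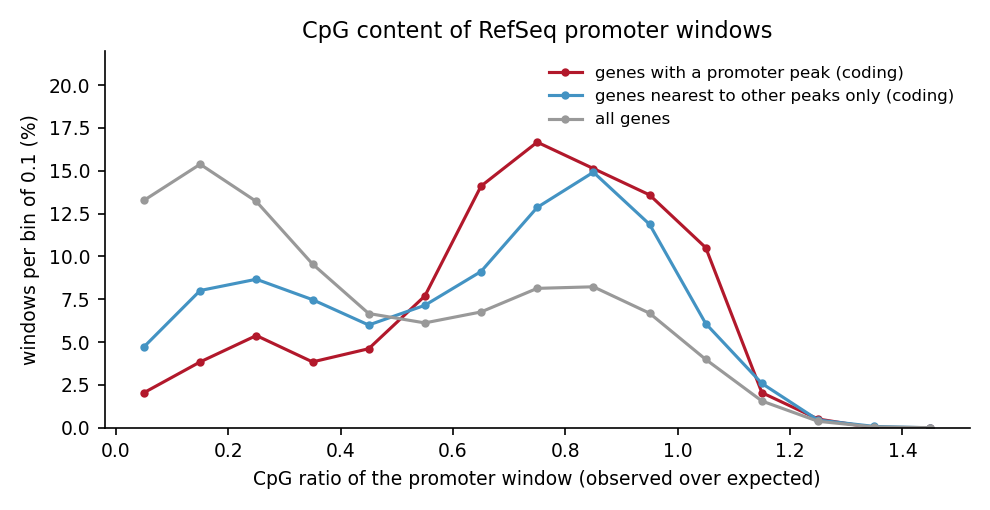
Percent of promoter windows in each bin of 0.1 of the CpG ratio for protein-coding genes with a promoter peak (390 windows), protein-coding genes nearest to other peaks only (2434) and all genes (32850). The windows of members rise to their highest share between 0.7 and 0.8, while those of all genes are highest between 0.1 and 0.2.

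Single members ran from low to high. The 3 windows printed above had ratios of 0.997 for Morc3, 0.639 for Cuedc2 and 0.316 for Sftpb. The Sftpb promoter, which serves a gene of few cell types, is thus among the CpG-poor members with one of the highest scores. The ratio did not follow the score, with a median of 0.762 (0.715 to 0.817) at scores of 40 or more and 0.748 (0.714 to 0.782) below.

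Matches to the let-7d seed, CTACCTC on either strand, were no more frequent in the promoters of members than elsewhere. They were found in 12 of 390 windows (3.08%, interval 1.60 to 5.31%), against 3.66% (2.95 to 4.48%) of the windows of genes nearest to other peaks only and 3.70% (3.45 to 3.97%) of all windows of protein-coding genes. The 12 matches fell in 11 genes, and in 7 of these the match lay within the peak. That of Pradc1 lay 16 to 22 bases after the TSS and inside the peak. That of Calr lay 21 to 27 bases after the TSS, while its peak reached from -1594 to -142 bases. A run of at least 8 bases shared with let-7d or its complement, anywhere in the microRNA, was present in 27 member windows (6.92%), against 4.81% among genes nearest to other peaks only and 5.46% among protein-coding genes. A run of at least 9 bases was present in 4 member windows (1.03%), against 0.863% and 1.10%. These shares of runs carry no interval. The windows cover 300 bases around RefSeq starts, not the whole peak, and no match says only that these letters are not in the window.

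Motifs of general promoters were counted on both strands in the same windows. The GC box GGGCGG was present in 61.3% (56.2 to 66.1%) of the members' windows, against 56.6% (54.6 to 58.6%) for genes nearest to other peaks only and 47.6% (46.9 to 48.3%) for protein-coding genes. CCAAT was present in 45.4% (40.4 to 50.5%), against 37.3% (35.4 to 39.3%) and 38.4% (37.7 to 39.0%). The core of ETS factors, CCGGAAG, was present in 17.7% (14.0 to 21.8%), against 11.2% (9.95 to 12.5%) and 11.9% (11.4 to 12.3%). The TATA box TATAAA went the other way, with 3.85% (2.17 to 6.26%) against 9.98% (8.82 to 11.2%) and 12.4% (12.0 to 12.9%). The E-box CACGTG had 12.1% (8.99 to 15.7%), against 8.71% (7.62 to 9.90%) and 8.03% (7.66 to 8.41%). The palindromic NRF1 motif had 2.05% (0.890 to 4.00%), against 1.89% (1.39 to 2.51%) and 1.38% (1.22 to 1.55%). Genes with a promoter-associated ncRNA in the pull-down and no promoter peak, 1434 windows, had the GC box in 62.3% (59.7 to 64.8%), CCAAT in 38.4% (35.9 to 41.0%), the ETS core in 19.2% (17.2 to 21.4%), the TATA box in 6.62% (5.39 to 8.04%) and the E-box in 8.23% (6.86 to 9.77%), each with an interval that overlapped that of the members. A motif rich in CpG is met more often in CpG-rich windows, and the part of base composition in these shares was not tested.

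The RNA pull-down was set beside the members by gene name. A promoter-associated ncRNA, listed by the authors at a fold of at least 2.5 over input, was found for 51 of the 402 genes (12.7%, interval 9.59 to 16.3%), against 231 of 2789 genes nearest to other peaks only (8.28%, 7.29 to 9.37%) and 6.16% of the curated genes. Genes whose other peaks lay within 10 kb of the TSS had one in 109 of 1168 cases (9.33%, 7.73 to 11.1%), an interval that overlapped that of the members. On chromosomes 6, 8, 11, 16 and 19 the share was 14.5% among the members' genes, against 7.91% among genes nearest to other peaks only. On the other chromosomes it was 9.02% (12 of 133, interval 4.75 to 15.2%) against 8.70%, within the counting error. A pulled-down mRNA was found for 29 genes (7.21%, interval 4.88 to 10.2%), against 6.67% of the genes nearest to other peaks only and 7.15% of protein-coding genes. The background was not limited to genes that these cells express. Its base also differs, with 26220 curated genes of all types for the ncRNA and 21035 protein-coding genes for the mRNA. Of the 402 genes with a promoter peak, 368 are protein-coding.

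By position, too, promoter peaks had a larger share than the other peaks. Of the 405 promoter peaks 41 overlapped the span of a pulled-down ncRNA by at least 1 base (10.1%, interval 7.36 to 13.5%), against 106 of 3881 other peaks (2.73%, 2.24 to 3.29%) and 3.43% of all peaks. Among other peaks within 1000 bases of a TSS the share was 6.42% (12 of 187, interval 3.36 to 10.9%), whose interval overlapped that of the promoter peaks. On chromosomes 6, 8, 11, 16 and 19 the share was 11.4% of promoter peaks, against 2.63% of other peaks. On the remaining chromosomes it was 7.52% (10 of 133, interval 3.66 to 13.4%) against 2.89%. All 41 overlapping promoter peaks lay over ncRNAs of the promoter-associated list, which holds 2432 of the 6208 listed ncRNAs. An ncRNA over a peak at a promoter lies at a promoter itself, so this count is largely set by the choice of peaks. At 33 of the 41 the gene nearest to the peak was also on that list. Where a gene had both, its nearest ncRNA touched the peak in 33 of 51 cases and came within 1000 bases in 43, with a largest gap of 4520 bases at Scrn2. Peak and ncRNA were both chosen for their place at the promoter, so their closeness follows in part from that choice.

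**Figure D5:**
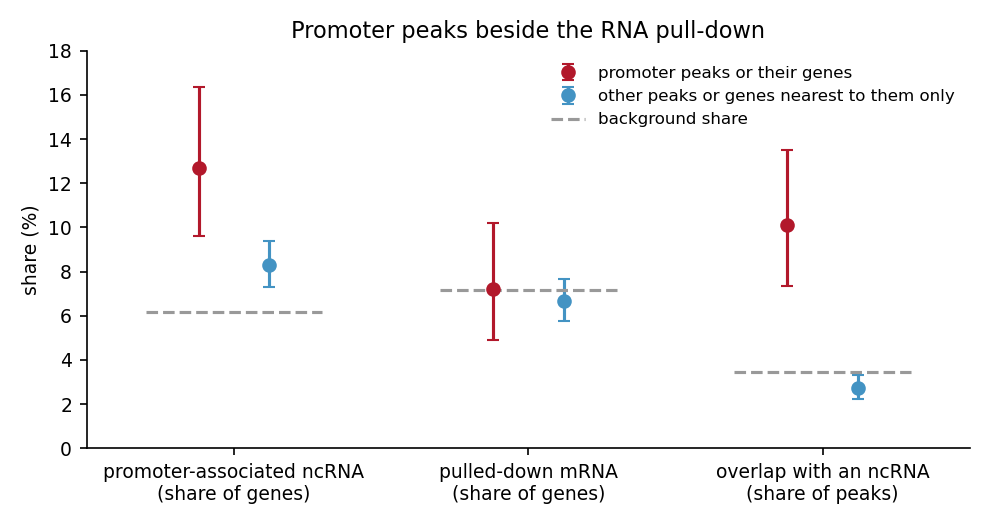
Share of genes with a promoter-associated ncRNA, share of genes with a pulled-down mRNA and share of peaks overlapping a pulled-down ncRNA, as points with exact 95% intervals, for promoter peaks and for other peaks. Dashed lines give the background of 6.16% of all curated genes, 7.15% of protein-coding curated genes and 3.43% of all peaks. Promoter peaks lie above the background in the ncRNA measures and at it in the mRNA measure.

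The folds of the ncRNAs at members were not high within the list. Taking the highest fold of each gene in the authors' deposited table, the median was 4.46 (interval 3.69 to 5.56) at the 51 genes, against 5.39 (5.17 to 5.62) at all 1624 genes of that list. At Nfkb2 the ncRNA with the highest fold, within the peak, had 12.7 RPKM (reads per kilobase, scaled to library size) in the pull-down and 2.43 RPKM in the input in the authors' deposited table, a fold of 5.21 (interval 2.35 to 11.9 from the recovered reads). At Mafg the authors' deposited table lists 14.6 RPKM in the pull-down and 3.43 RPKM in the input, a fold of 4.25 (2.67 to 6.76). The ncRNA at Calr had a fold of 44.1 in the authors' deposited table but rests on 1 input read, counted as 1 pair (interval 3.68 to 892). The folds in the authors' deposited table were 3.09 at Pradc1 and 2.53 at Sf3b2, with intervals from the recovered reads of 2.59 to 3.68 and 2.20 to 2.91. Among the 10 of these genes with the highest peak scores, Chmp6 and Setd4 had 3.16 and 3.87 in the authors' deposited table. Pisd-ps2 (3.16), Scrn2 (4.79) and Chmp2b (4.91) have an input listed as exactly 1 RPKM there, as 12 of the 51 genes do, and carry no interval.

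Among genes with a promoter peak and a pulled-down mRNA, the highest peak score was that of Lsm4, 58.3, with a listed fold of 2.83 (2.55 to 3.15) in the authors' deposited table. Bpgm, the enzyme that makes 2,3-bisphosphoglycerate, followed with a score of 54.9 and a fold of 4.46 in the authors' deposited table, where its reads could not be recovered. Hic1, a transcriptional repressor, had a score of 54.4 and a fold of 40.7 (13.5 to 196) in the authors' deposited table, with 3 input reads. Dusp14, a dual-specificity phosphatase, had 47.8 and 18.6 (6.87 to 67.2), and the imprinted gene Mest 43.0 and 3.95 (2.41 to 6.92), both in the authors' deposited table. The rest of the 10 with the highest peak scores were Cnnm2, 2810428I15Rik, Dcun1d5, Fam71f1 and Dync1i1, with folds of 2.62 to 17 in the authors' deposited table. The 17 is that of Dync1i1, at 0.034 RPKM in the pull-down and 0.002 RPKM in the input there, and its reads could not be recovered. That of Dcun1d5, 15.3 (5.43 to 53.6) in the authors' deposited table, rests on 4 input reads. Genes that had a promoter peak, a promoter-associated ncRNA and a pulled-down mRNA included Cnnm2, Dcun1d5, Eaf2, Ece2, Fam71f1 and Klf1. Their peak scores ranged from 31.3 at Klf1 to 50.3 at Cnnm2. Eaf2 encodes a factor of RNA polymerase II elongation, and its folds in the authors' deposited tables were 4.31 (3.53 to 5.28) and 3.19 (1.56 to 7.51) for the 2 ncRNAs that touch the peak. The mRNA transcript that touches it had a fold of 5.17 in the authors' deposited table, at 0.243 RPKM in the pull-down and 0.047 RPKM in the input.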

How the data were processed

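ChIRP-seq peaks and pull-down tables were used as the authors deposited them. Per the submitters' processing notes, both libraries went through FastQC, bedtools, Bowtie2, HOMER and SAMtools with build mm9. MACS is named for ChIRP-seq alone, and Trimmomatic and Picard 1.119, with bedtools given as 2.15, for the pull-down. Which step each carried out is not given in the sources used here. The deposited peak score is named only as such, without the tool that gave it. The deposited RPKM values are rounded to 3 decimals, and the deposited fold is the ratio of pull-down to input RPKM. Times transcript span, RPKM gave whole reads within 0.15 for at least 99.7% of the values with enough decimals in each column, for totals of 23.9 M input and 42.0 M pull-down reads (mRNA) and 9.66 M and 14.97 M (ncRNA). From these reads came the fold intervals, ncRNA reads being counted as pairs since 79.2% of the input numbers were even.

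Shares carry exact Clopper-Pearson intervals and medians order-statistic intervals, at 95%, computed with Python 3.11.15, pandas 2.3.3, NumPy 2.4.6 and SciPy 1.17.1, and plotted with Matplotlib 3.10.9. The steps were tested on simulated data. Names were matched to RefSeq (GRCm38.p6), with 401 of 402 genes found; no coordinate was converted between builds. For CpG and motifs, only protein-coding genes were used, since over all genes windows covered 79.6%, and 1 window on another chromosome than its peak was left out. The members, gene sets and rules were chosen with earlier results of these data known. Named genes are the 20 highest scores, set members with a peak, the 10 highest peak scores on each pull-down list, genes with several promoter peaks or on both lists, and the 3 nearest to each edge. A gene that this rule names is not reported here. Alternatives changed the score threshold, repeats, the class, the chromosomes, the fold, the matching, the overlap and the seed.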

Additional observations from a re-analysis of the deposited data

How the results depend on the processing

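Of 77 values computed under other settings, 57 stayed within the exact interval of the reported value and 20 left it. With only scores of at least 40, the promoter share of peaks was 14.2%, and by that selection the median score 50 and the median width 900 bases; chromosomes 6, 8, 11, 16 and 19 then held 80.8% and 15.2% of the promoter peaks overlapped an ncRNA. Without peaks annotated as a repeat the promoter share was 12.4%; promoter peaks carry their class as detailed annotation, so none could be removed. With peaks of any class within 1000 bases of a TSS, the share was 13.8% and 53.9% lay upstream, by the symmetric window. Without the 5 chromosomes the promoter share was 8.21%, the median score 34.2, the width 653 bases and the share of genes with a promoter-associated ncRNA 9.02%; the cause was not tested. By construction, a fold of at least 5 left 5.22% of the genes with an ncRNA and 3.98% with an mRNA, a peak at least 50% covered by an ncRNA gave 5.93%, and the seed match of bases 2 to 7 gave 8.72%.

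Chosen after seeing the data were the peaks that span the TSS (median score 37.7, width 736 bases, 72.2% upstream), those whose class accession and nearest TSS are of the same gene (86.2% upstream), the set without Rn4.5s, and windows of all genes; the cause of the first was not tested. The 2 last kept every value within its interval. No paired analysis was possible because each group has 1 library and no result comes from a test. The peak list gives no reads, so depth limits every statement on weak peaks.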

Other observations

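At the 8 promoter peaks that overlap a pulled-down ncRNA although their nearest gene is not on the promoter-associated list, 2610044O15Rik8 had the highest score, 72.8, over an ncRNA with a fold of 4.43 in the authors' deposited table. Gm4890 (63.8), BC056474 (50.7), Sart1 (44.3), Mmachc (44.2), Nudcd2 (40.8), Shoc2 (37.8) and 1810012K16Rik (34.8) were the others, given here by peak score and named after their values were seen. Sart1 is a component of the splicing tri-snRNP and Mmachc an enzyme of vitamin B12 handling. At Gm4890 the class accession belonged to Mmaa, and at Nudcd2, a cochaperone, to Hmmr, the receptor of hyaluronan that also binds spindle microtubules.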
